A study of Homo sapiens with 12 samples.

Results

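Enterocytes that received vitamin D3 (VD3) and valproic acid (VPA) together were compared with untreated enterocytes, across all genes measured by RNA sequencing. The comparison uses 6 of the 12 libraries of the study, 3 named VD3VPA and 3 named Control, and the other 6 libraries received VD3 alone or VPA alone and serve to show where the joint treatment differs from each compound. All cells were differentiated from RPChiPS771, a single human induced pluripotent stem cell line, and all were kept in the same medium, called M3, from day 15 to day 23. Control received no VD3, the VD3 group received VD3 at 1 µM, the VPA group received VPA at 100 µM, and the VD3VPA group received VD3 at 1 µM and VPA at 100 µM. The labels name no solvent for the controls, nor do they state that libraries are separate cultures, and the p-values therefore measure the spread between libraries, which may be technical.

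Vitamin D acts through the vitamin D receptor (VDR), a nuclear receptor that pairs with a retinoid X receptor, binds DNA and activates genes for calcium uptake and for the breakdown of the hormone itself. In the intestine it is best known for raising the calcium channel TRPV6 and the calcium-binding protein calbindin-D9k, which is encoded by S100G. Valproic acid is an anticonvulsant that inhibits histone deacetylases, enzymes that remove acetyl groups from histones.

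Between 32160289 and 43998467 fragments per library were assigned to genes. Values are FPKM, fragments scaled for gene length and library depth, and the 12561 genes reaching 1 FPKM in 3 or more libraries were tested on log2(FPKM + 1) with limma, with an adjusted p under 0.05 counted as called. A log2 change on this scale understates the change of genes with low levels. The filter used all 12 libraries, so a gene near 0 in Control was tested only if other groups reached 1 FPKM. Counts of rises include genes tested for that reason. The enterocyte label was checked against 28 markers of that cell type, of which 26 passed the expression filter. These markers summed to 10321 to 11689 FPKM in Control and 26458 to 29579 in VD3VPA. The sums were 25114 to 30838.5 with VD3 alone and 24455 to 26645 with VPA alone. Abundant members weigh most in a sum, and between VD3VPA and Control 12 of the 26 were called higher and 9 lower. In Control the villus protein VIL1 stood at 132 ± 3.53 FPKM (SD, n = 3) and the intestinal regulator CDX2 at 49.6 ± 6.07, whereas sucrase-isomaltase (SI), a digestive enzyme of mature enterocytes, was at 1.15 ± 0.084. AFP, a protein of fetal liver and yolk sac, stood at 26953 FPKM in Control and 22799 in VD3VPA. The 28 hepatocyte markers summed to 38442 to 39565 FPKM in Control and 36582 to 41599 in VD3VPA. In both groups these sums exceeded those of the enterocyte markers. The markers therefore did not single out enterocytes, and the name follows the label. Mitochondrially encoded genes held between 19.5% and 20.2% of the FPKM of Control libraries and between 16.6% and 16.7% of VD3VPA libraries, and the part of this difference in the results was not tested. These are bulk samples, in which fewer cells of a type and less RNA per cell cannot be told apart.

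Together the 2 compounds changed 8072 of the 12561 genes, which is 64.3%. Of these, 3909 were higher (31.1% of the genes tested) and 4163 were lower (33.1%), and the median log2 change over all genes was -0.01. Changes reached 2-fold or more for 956 genes (7.61%), of which 609 were higher (4.85%) and 347 lower (2.76%). The 956 became 1650 with a pseudocount of 0.1 and 1727 with voom, a weighted fit of log counts added after seeing the data, on whole fragments recovered from FPKM. Among changes of at least 4-fold, 154 genes were higher and 23 lower. In 4196 genes (33.4%) all 3 VD3VPA libraries lay above all 3 Control libraries, and in 4452 genes (35.4%) they lay below. Counts for gene lists are to be read against these shares.

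Genes of intestinal calcium uptake and vitamin D breakdown were among the largest rises. CYP24A1, the enzyme that inactivates vitamin D hormone, had 1 fragment in the Control libraries together and 628283 in the VD3VPA libraries, which puts the ratio at 703000 (95% exact interval for counting error, 126000 to 27800000). Its levels with both compounds were 1335, 1504 and 1442 FPKM. S100G measured 0.587, 0.186 and 0.412 FPKM in the Control libraries and 2295, 1879.6 and 2032 in the VD3VPA libraries (log2 change 10.54, SE 0.603, adjusted p = 4.58e-08). TRPV6, the channel through which calcium enters the enterocyte, rose from 0.0348, 0.0425 and 0.0354 FPKM to 45.9, 46.1 and 45.9 (log2 change 5.50, SE 0.0987, adjusted p = 8.23e-12). For all 3 genes the groups were far apart and every VD3VPA library exceeded every Control library. In the order given, they averaged 928, 1535 and 33.3 FPKM with VD3 alone and 0.891, 5.29 and 0.256 with VPA alone.

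The list of VDR targets named in the literature had 39 members, of which 10 stayed below 1 FPKM in every library and were not tested. Of the 29 tested members, 24 rose, 1 fell and 4 did not pass the test. Their median log2 change was 0.70 (1.14 with voom on the recovered fragments). Members near 0 FPKM in Control, such as CYP24A1 and TRPV6, passed the filter through other groups, which favours rises. VD3 alone raised 25 of the 29 and lowered 3 (median 0.947), and VPA alone raised 12 and lowered 4 (median 0.199). Of 18 genes of calcium and phosphate absorption, 5 stayed below 1 FPKM in every library and were not tested. Of the 13 tested members, 11 rose, 1 fell and 1 did not pass the test, with a median log2 change of 0.99. VD3 alone raised 11 of the 13 and lowered 0 (median 0.835), and VPA alone raised 6 and lowered 0 (median 0.258). The phosphate carrier SLC34A3 rose from 4.34 to 26.6 FPKM (log2 change 2.37, SE 0.0803, adjusted p = 7.31e-10) and CLDN2, a claudin that forms cation-permeable pores between cells, rose from 2.57 to 82.0 (log2 change 4.55, SE 0.176, adjusted p = 2e-09). ATP2B1, a pump that exports calcium at the basolateral side, went from 24.8 to 39.7 FPKM, a smaller rise (log2 change 0.65, SE 0.0537, adjusted p = 8.21e-07). The receptor gene VDR was at 3.31, 2.97 and 3.37 FPKM in Control and 3.33, 3.46 and 3.50 with both compounds, overlapping groups that did not pass the test (log2 change 0.07, SE 0.107, adjusted p = 0.573). Among genes of the receptor complex and hormone turnover, 3 of 14 tested members rose, 5 fell and 6 did not pass the test, with a median log2 change of 0.07. The lower members included CYP27A1, which hydroxylates vitamin D, from 53.1 to 41.1 FPKM (log2 change -0.36, SE 0.0406, adjusted p = 1.07e-05) and RXRA, a partner of VDR, from 12.3 to 10.7 (log2 change -0.19, SE 0.0445, adjusted p = 0.00269). S100G overlaps CTPS2, CLDN2 overlaps MORC4, CP overlaps HPS3, SLC46A1 overlaps SARM1 and HSPD1 overlaps HSPE1 on the opposite strand. Other named genes do so too, such as APOA4 with AP006216.3, SLC51B with RASL12 and STX3 with FABP5P7. These overlaps are of whole gene spans, and exons were not compared. The strand setting of the counting is not given in the sources used here. Reads from any counted bases that such pairs share therefore cannot be told apart.

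**Figure D1:**
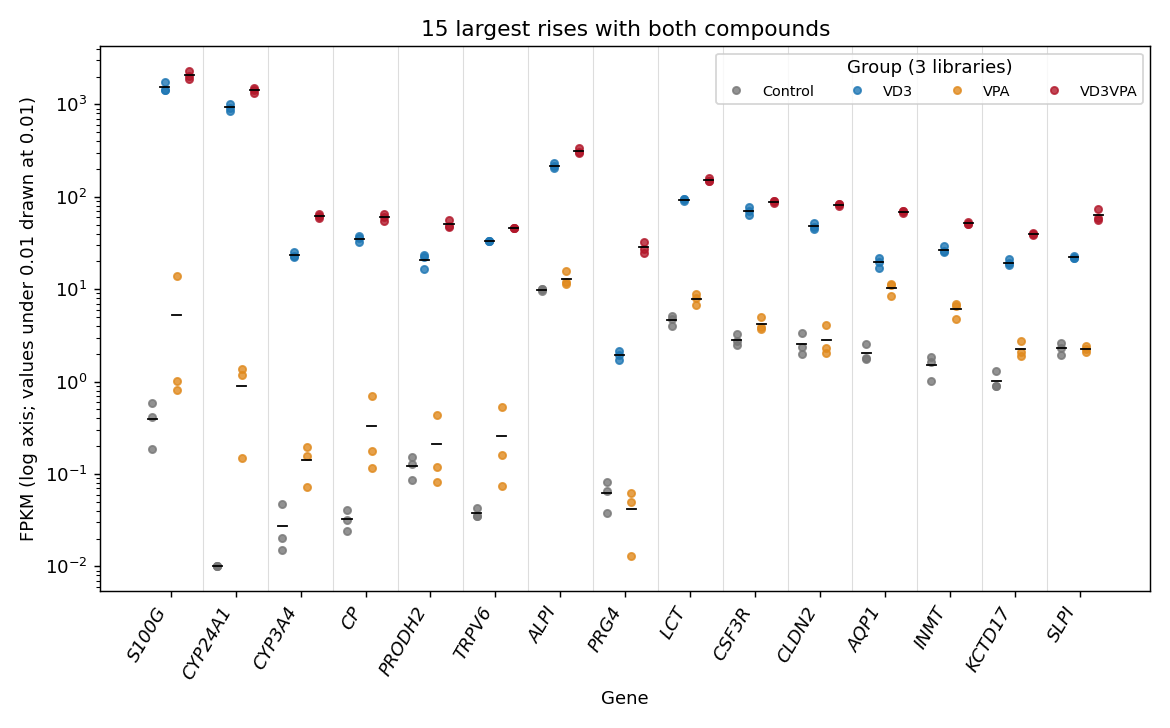
FPKM in each library (points) with the group mean (bar) for the 15 largest rises with both compounds, on a log axis, with values under 0.01 drawn at 0.01. The VD3VPA libraries stand above the Control libraries for all 15 genes because the rule that chose them required it. S100G reached 2069 FPKM on average against 0.395 in Control.

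CYP3A4 and CYP3A5, closely related enzymes that oxidise many drugs, rose together. CYP3A4 was at 0.0472, 0.0202 and 0.0149 FPKM in Control, 10 fragments in all, and at 64.9, 61.4 and 58.4 with both compounds (log2 change 5.93, SE 0.0603, adjusted p = 8.49e-14), which puts the ratio at 2390 (95% exact interval for counting error, 1300 to 4980). CYP3A5 went from 6.80, 6.49 and 6.50 FPKM to 118, 116 and 114 (log2 change 3.94, SE 0.0672, adjusted p = 8.23e-12). Reads of such similar genes can be shared between them, so the split is uncertain. The known element that binds VDR and the xenobiotic receptor PXR in these promoters is an everted repeat, searched here on both strands as TGAACT, any 6 bases and AGGTCA, and the only other motifs searched were these half-sites themselves. The 250 bases before each gene's start are shown because both hold one match, with the half-sites in capitals (RefSeq, GRCh38.p14, minus strand, chr7:99784185-99784434 and chr7:99679997-99680246):
CYP3A4: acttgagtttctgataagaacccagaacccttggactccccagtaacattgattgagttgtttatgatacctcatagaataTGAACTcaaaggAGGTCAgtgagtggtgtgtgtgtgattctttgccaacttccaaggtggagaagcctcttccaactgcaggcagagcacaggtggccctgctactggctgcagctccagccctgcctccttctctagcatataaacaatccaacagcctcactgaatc
CYP3A5: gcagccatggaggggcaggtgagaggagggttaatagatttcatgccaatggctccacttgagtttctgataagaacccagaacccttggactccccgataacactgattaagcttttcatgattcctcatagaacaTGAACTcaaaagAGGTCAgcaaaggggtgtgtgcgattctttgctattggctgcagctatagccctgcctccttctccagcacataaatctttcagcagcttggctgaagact
The match lies 169 to 152 bases before the start of CYP3A4 and 113 to 96 before that of CYP3A5. Of 35116 promoter stretches of that length, 3 hold the repeat, or 0.00854%, the third belonging to ITGB1BP2. Among the 15 largest rises, 11 have a promoter in the table and 1 holds the repeat, CYP3A4. Because the element was known from these promoters, its presence in them was fixed in advance. No other form of VDR element was searched, so promoters without this repeat may still hold one. The match is a description of the letters and was not tested as a binding site.

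Other large rises fell in several classes of gene. CP, which encodes the plasma copper protein ceruloplasmin, rose from 0.0244, 0.0405 and 0.0321 FPKM to 54.9, 64.8 and 59.8 (log2 change 5.88, SE 0.129, adjusted p = 2.18e-11). PRODH2, an enzyme of hydroxyproline breakdown, rose from 0.123 to 50.5 FPKM (log2 change 5.51, SE 0.131, adjusted p = 3.93e-11), and the water channel AQP1 rose from 2.03 to 68.9 (log2 change 4.54, SE 0.121, adjusted p = 1e-10). CSF3R, the receptor for granulocyte colony-stimulating factor, rose 31.5-fold and SLPI, a secreted inhibitor of proteases, rose 27.5-fold. INMT, a methyltransferase of amines, rose 34.6-fold, and KCTD17, an adaptor of a ubiquitin ligase, rose 38.7-fold. Among the 15 largest rises, PRG4, a lubricating proteoglycan, had the largest interaction of the 2 compounds: it stood at 0.0824, 0.0377 and 0.065 FPKM in Control, 1.73, 1.95 and 2.16 with VD3, 0.0501, 0.0129 and 0.0617 with VPA and 32.7, 27.6 and 24.8 with both. The 3 libraries with both compounds all lay above every other library, and the joint change exceeded the sum of the single changes by 3.34 on the log2 scale (SE 0.122, adjusted p = 1.23e-07).

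Digestive enzymes of the brush border split in direction. The intestinal alkaline phosphatase ALPI rose from 9.97, 9.49 and 10.2 FPKM to 339.9, 303 and 299 (log2 change 4.85, SE 0.0971, adjusted p = 1.22e-11) and lactase (LCT) from 4.74, 5.17 and 4.02 to 149, 158 and 147 (log2 change 4.76, SE 0.0914, adjusted p = 9.68e-12). Neither overlapped between groups. SI went the other way, from 1.15 to 0.105 FPKM (log2 change -0.96, SE 0.075, adjusted p = 5.69e-07). Over the list, 5 of 17 tested members rose, 10 fell and 2 did not pass the test, with a median log2 change of -0.31. Among genes of the microvillus scaffold, 6 of 24 tested members rose, 11 fell and 7 did not pass the test, with a median log2 change of -0.20. VIL1 fell from 132 to 99.8 FPKM (log2 change -0.40, SE 0.0438, adjusted p = 8.61e-06), the related VILL fell from 18.2 to 5.02 (log2 change -1.67, SE 0.0852, adjusted p = 1.81e-08), and STX3, a syntaxin needed for apical delivery, fell from 60.2 to 28.4 (log2 change -1.05, SE 0.0551, adjusted p = 2.13e-08). Among junction genes, 9 of 33 tested members rose, 9 fell and 15 did not pass the test, with a median log2 change of -0.01, with the desmosomal cadherin DSC2 lower and CLDN12 higher. The enterocyte marker list as a whole had 12 members higher and 9 lower of 26, and its median log2 change of 0.03 became -0.01 when libraries were scaled to equal FPKM sums. CDX2 did not pass the test (log2 change 0.04, SE 0.0738, adjusted p = 0.646), although it did without Control replicate 3 (adjusted p = 0.0445).

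Fat uptake and the packaging of lipoproteins were among the functions with more rises than falls. Of this list, 20 of 36 tested members rose, 4 fell and 12 did not pass the test, with a median log2 change of 0.36. APOA4, an apolipoprotein of chylomicrons, rose from 798, 872 and 488 FPKM to 5743, 5016 and 4700.2 (log2 change 2.88, SE 0.217, adjusted p = 4.04e-07), and FABP2, the intestinal fatty acid-binding protein, rose from 3.26, 2.22 and 2.44 to 62.0, 43.6 and 47.8 (log2 change 3.83, SE 0.18, adjusted p = 8.94e-09). The lipoprotein receptor SCARB1 rose 2.30-fold and TM6SF2, which takes part in lipoprotein lipidation, rose 2.82-fold. MTTP, which loads lipid onto apolipoprotein B, rose from 51.7 to 74.3 FPKM (log2 change 0.52, SE 0.0576, adjusted p = 1.02e-05), while APOB itself, which went from 437 to 429 FPKM, did not pass the test (log2 change -0.03, SE 0.0522, adjusted p = 0.674). In cholesterol synthesis, 15 of 25 tested members rose, 3 fell and 7 did not pass the test, with a median log2 change of 0.29. INSIG1, a sterol-sensing brake on the pathway, rose from 66.3 to 121 FPKM, MSMO1, a sterol oxidase, rose from 322 to 588, and PMVK, a kinase of the mevalonate pathway, fell from 30.9 to 15.6. In fatty acid oxidation and ketogenesis, 12 of 30 tested members rose, 7 fell and 11 did not pass the test, with a median log2 change of 0.08 (0.04 with equal FPKM sums). ACAA2, a thiolase of mitochondria, rose from 15.0 to 38.4 FPKM (log2 change 1.30, SE 0.0494, adjusted p = 1.8e-09).

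Bile acid, metal and ion carriers also changed. In bile acid sensing and transport, 8 of 13 tested members rose, 5 fell and 0 did not pass the test, with a median log2 change of 0.86. SLC10A1, a bile acid importer of hepatocytes, rose from 16.9, 19.3 and 13.9 FPKM to 140.2, 129 and 126 (log2 change 2.92, SE 0.17, adjusted p = 5.4e-08), and SLC51B, a subunit of the basolateral bile acid exporter, rose from 29.6 to 86.3 (log2 change 1.51, SE 0.0778, adjusted p = 1.85e-08). Among metal handling genes, 9 of 21 tested members rose, 2 fell and 10 did not pass the test, with a median log2 change of 0.07. SLC30A10, a manganese exporter, rose from 3.97 to 61.8 FPKM (log2 change 3.66, SE 0.102, adjusted p = 1.42e-10) and the ferritin heavy chain FTH1 rose from 358 to 1737 (log2 change 2.27, SE 0.0961, adjusted p = 4.17e-09). In water, sodium and chloride transport, 13 of 25 tested members rose, 7 fell and 5 did not pass the test, with a median log2 change of 0.28. CFTR, the chloride channel, fell from 15.1 to 4.38 FPKM (log2 change -1.58, SE 0.0423, adjusted p = 1e-10), and KCNE3, a potassium channel subunit, fell from 8.61 to 1.17 (log2 change -2.14, SE 0.0763, adjusted p = 1.05e-09). For drug and nutrient uptake carriers, 11 of 31 tested members rose, 14 fell and 6 did not pass the test, with a median log2 change of -0.10. The folate carrier SLC46A1 rose from 8.32 to 40.3 FPKM, the cystine carrier subunit SLC7A9 fell from 24.9 to 5.63, and the peptide carrier SLC15A1 did not pass the test (log2 change -0.14, SE 0.0932, adjusted p = 0.216).

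Drug-metabolising genes moved in both directions. Among phase I enzymes, a list that includes CYP3A4 and CYP3A5, 14 of 29 tested members rose, 7 fell and 8 did not pass the test, with a median log2 change of 0.11 (0.07 with quantile normalization), and among phase II enzymes, 12 of 34 tested members rose, 14 fell and 8 did not pass the test, with a median log2 change of -0.13. AKR1B10, a reductase of aldehydes, fell from 31.6 to 4.59 FPKM (log2 change -2.52, SE 0.17, adjusted p = 1.65e-07) and ALDH1A1, which makes retinoic acid, fell from 30.3 to 11.9 (log2 change -1.28, SE 0.0548, adjusted p = 4.76e-09). UGT1A1, which conjugates bilirubin, rose from 3.80 to 18.3 FPKM (log2 change 2.01, SE 0.113, adjusted p = 3.85e-08), and UGT2B15, which conjugates steroids, fell from 12.3 to 1.29 (log2 change -2.54, SE 0.178, adjusted p = 2.27e-07). UGT genes share exons or near-identical sequence, so the assignment of reads among them is uncertain. Of the efflux pumps, 6 of 10 tested members rose, 1 fell and 3 did not pass the test, with a median log2 change of 0.37. ABCB1, the P-glycoprotein gene, rose from 1.54 to 2.62 FPKM (log2 change 0.51, SE 0.0769, adjusted p = 0.00012) and ABCC3 rose from 19.7 to 36.6 (log2 change 0.86, SE 0.0577, adjusted p = 1.62e-07).

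In glycolysis, gluconeogenesis and fructose metabolism, 13 of 24 tested members rose, 6 fell and 5 did not pass the test, with a median log2 change of 0.26. PCK1, which commits to gluconeogenesis, rose from 0.368 to 4.72 FPKM (log2 change 2.06, SE 0.0795, adjusted p = 2.01e-09) and HK1, a hexokinase, rose from 0.437 to 4.98 (log2 change 2.06, SE 0.114, adjusted p = 3.39e-08). For breakdown of amino acids, 16 of 29 tested members rose, 6 fell and 7 did not pass the test, with a median log2 change of 0.31. Of the protein-coding genes whose groups did not overlap, the largest fall on the log2 scale was in TDO2, the first enzyme of the kynurenine pathway, from 27.3, 23.3 and 25.1 FPKM to 2.46, 1.77 and 1.71 (log2 change -3.14, SE 0.123, adjusted p = 2.23e-09). Of respiratory chain subunits, 9 of 31 tested members rose, 12 fell and 10 did not pass the test, with a median log2 change of -0.04. These counts lie near the shares of all genes, 31.1% higher and 33.1% lower.

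Most genes of growth and ribosome production on the lists were lower. MYC, a transcription factor that promotes growth, went from 13.0, 10.6 and 11.1 FPKM to 0.617, 0.599 and 1.09 (log2 change -2.83, SE 0.167, adjusted p = 5.77e-08), with no overlap between groups. Among MYC, nucleolar and polyamine genes, 1 of 22 tested members rose, 20 fell and 1 did not pass the test, with a median log2 change of -0.95. NPM1, a nucleolar protein, fell from 158 to 54.4 FPKM (log2 change -1.51, SE 0.0711, adjusted p = 8.99e-09), and IMPDH2, an enzyme of guanine nucleotide synthesis, fell from 79.7 to 24.0 (log2 change -1.68, SE 0.0878, adjusted p = 2.14e-08). All 34 cytosolic ribosomal protein genes of the list fell, with a median log2 change of -0.75, and under every scaling tried 34 were called lower, while 33 were with the 6 libraries alone. Against VD3 alone, 26 of these 34 were higher with both compounds, where 17.5% of all genes were, and against VPA alone 33 were lower, where 34.7% of all genes were. Of the proliferation genes, 2 of 21 tested members rose, 14 fell and 5 did not pass the test, with a median log2 change of -0.56 (-0.86 with voom on the recovered fragments), and PCNA, a clamp of DNA replication, fell from 10.3 to 4.55 FPKM (log2 change -1.02, SE 0.0869, adjusted p = 1.14e-06). Of p53 targets and growth arrest genes, 12 of 23 tested members rose, 3 fell and 8 did not pass the test, with a median log2 change of 0.17. CDKN1A, an inhibitor of the cell cycle, did not pass the test (log2 change -0.05, SE 0.0547, adjusted p = 0.409). Among chaperones, 7 of 23 tested members rose, 12 fell and 4 did not pass the test, with a median log2 change of -0.21, and HSPD1, the mitochondrial chaperonin, fell from 157 to 49.1 FPKM. In the integrated stress and unfolded protein response, 7 of 28 tested members rose, 11 fell and 10 did not pass the test, with a median log2 change of -0.06, with DDIT4, an inhibitor of mTORC1, higher, from 5.92 to 34.4 FPKM.

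**Figure D2:**
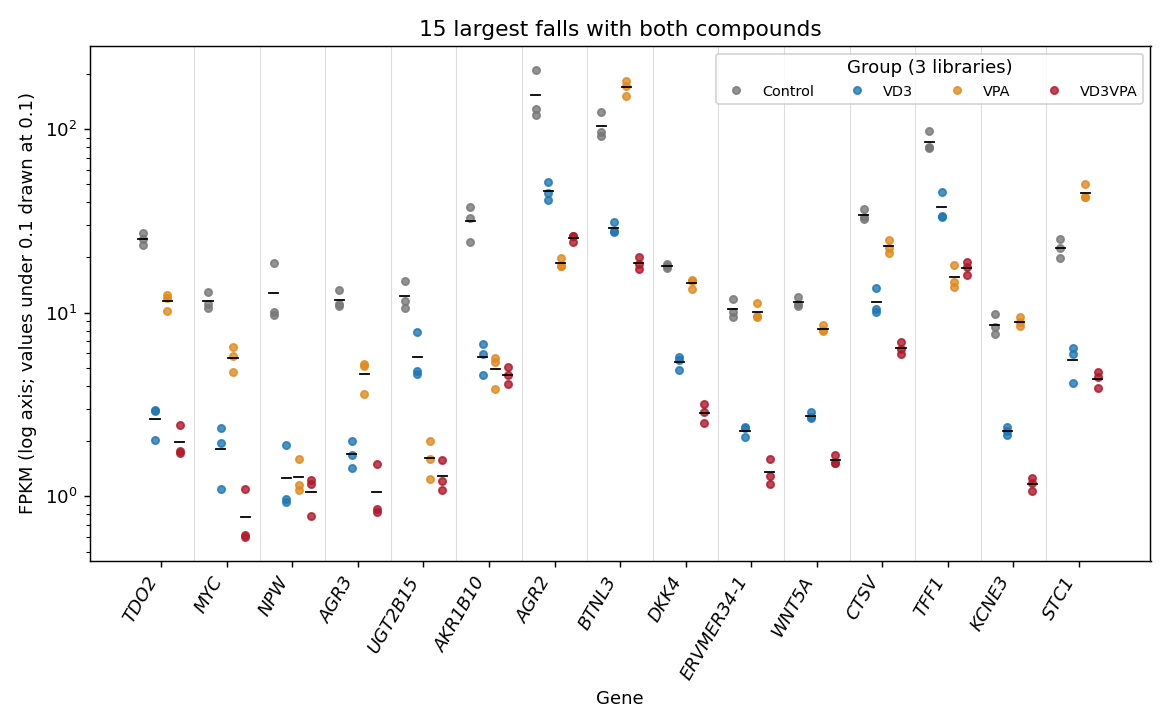
FPKM in each library (points) with the group mean (bar) for the 15 largest falls with both compounds, on a log axis, with values under 0.1 drawn at 0.1. The VD3VPA libraries stand below the Control libraries for all 15 genes because the rule that chose them required it. TDO2 averaged 1.98 FPKM against 25.2 in Control.

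The other large falls included secreted and signalling proteins. AGR2, a protein disulfide isomerase of mucus-producing cells, fell from 129, 119.9 and 211 FPKM to 26.1, 24.2 and 26.3 (log2 change -2.49, SE 0.168, adjusted p = 1.68e-07), and its relative AGR3 fell from 11.7 to 1.05 (log2 change -2.64, SE 0.147, adjusted p = 3.49e-08). TFF1, a trefoil peptide of gastric mucus, fell from 85.5 to 17.6 FPKM (log2 change -2.21, SE 0.132, adjusted p = 6.23e-08). NPW, a neuropeptide precursor, fell 12.1-fold, BTNL3, a butyrophilin-like protein of gut epithelium, fell 5.57-fold, and CTSV, a lysosomal protease, fell 5.33-fold. WNT5A, a secreted Wnt ligand, fell from 11.4 to 1.57 FPKM (log2 change -2.27, SE 0.0505, adjusted p = 2.35e-11). Its antisense partner WNT5A-AS1 went from 8.48 to 1.23, and reads from any counted bases that the pair shares cannot be told apart. DKK4, a secreted Wnt inhibitor, fell 6.31-fold, STC1, a secreted glycoprotein hormone, fell 5.17-fold, and ERVMER34-1, an endogenous retroviral envelope gene, fell 7.73-fold.

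Histone deacetylases, the enzymes VPA inhibits, showed small changes. Of this list with the sirtuins, 9 of 15 tested members rose, 0 fell and 6 did not pass the test, with a median log2 change of 0.13, but 6 rose when libraries were scaled to equal FPKM sums. HDAC1 went from 21.0 to 25.6 FPKM (log2 change 0.27, SE 0.0412, adjusted p = 0.000116). Of genes known to rise with histone deacetylase inhibitors, 8 of 18 tested members rose, 2 fell and 8 did not pass the test, with a median log2 change of 0.25. VD3 alone raised 12 of the 18 and lowered 0, and VPA alone raised 11 and lowered 2. Against VD3 alone, 2 were higher with both compounds and 7 lower, where 17.5% and 17.2% of all genes were. CLU, a secreted chaperone, rose from 9.82 to 30.7 FPKM (log2 change 1.55, SE 0.0519, adjusted p = 6.49e-10), GSN, which severs actin, rose from 37.8 to 96.6 (log2 change 1.33, SE 0.0935, adjusted p = 2.41e-07) and TP53INP1, a stress-response protein, rose from 4.73 to 19.1 (log2 change 1.82, SE 0.0603, adjusted p = 6.02e-10). In that order they averaged 21.5, 82.7 and 15.8 FPKM with VD3 alone and 11.0, 60.2 and 7.60 with VPA alone. Among histone acetyltransferases, readers and corepressors, 5 of 22 tested members rose, 4 fell and 13 did not pass the test, with a median log2 change of 0.01 that was -0.02 with equal FPKM sums. KAT2A, an acetyltransferase, fell from 9.78 to 4.12 FPKM (log2 change -1.08, SE 0.0638, adjusted p = 6.19e-08).

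Of intestinal transcription factors, 9 of 22 tested members rose, 8 fell and 5 did not pass the test, with a median log2 change of 0.06. TCF7L2, a Wnt effector, rose from 8.25 to 15.9 FPKM, and GATA5 fell from 19.9 to 9.81. Of nuclear receptors and xenobiotic sensors, 9 of 27 tested members rose, 11 fell and 7 did not pass the test, with a median log2 change of -0.04. The retinoic acid receptor RARB fell from 2.40 to 0.464 FPKM (log2 change -1.22, SE 0.0725, adjusted p = 6.39e-08), and PPARA, which activates fatty acid oxidation, rose from 3.87 to 8.33 (log2 change 0.94, SE 0.0839, adjusted p = 1.72e-06). In BMP, TGF beta and Notch signalling, 8 of 24 tested members rose, 7 fell and 9 did not pass the test, with a median log2 change of -0.02. The Notch ligand JAG1 fell from 18.9 to 4.59 FPKM (log2 change -1.83, SE 0.0761, adjusted p = 3.58e-09), and ID4, an inhibitor of helix-loop-helix factors, rose from 20.5 to 74.6 (log2 change 1.83, SE 0.109, adjusted p = 6.4e-08). In innate defence and antigen presentation, 8 of 15 tested members rose, 4 fell and 3 did not pass the test, with a median log2 change of 0.24, with the defensin DEFB1 lower, from 31.3 to 12.9 FPKM.

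**Figure D3:**
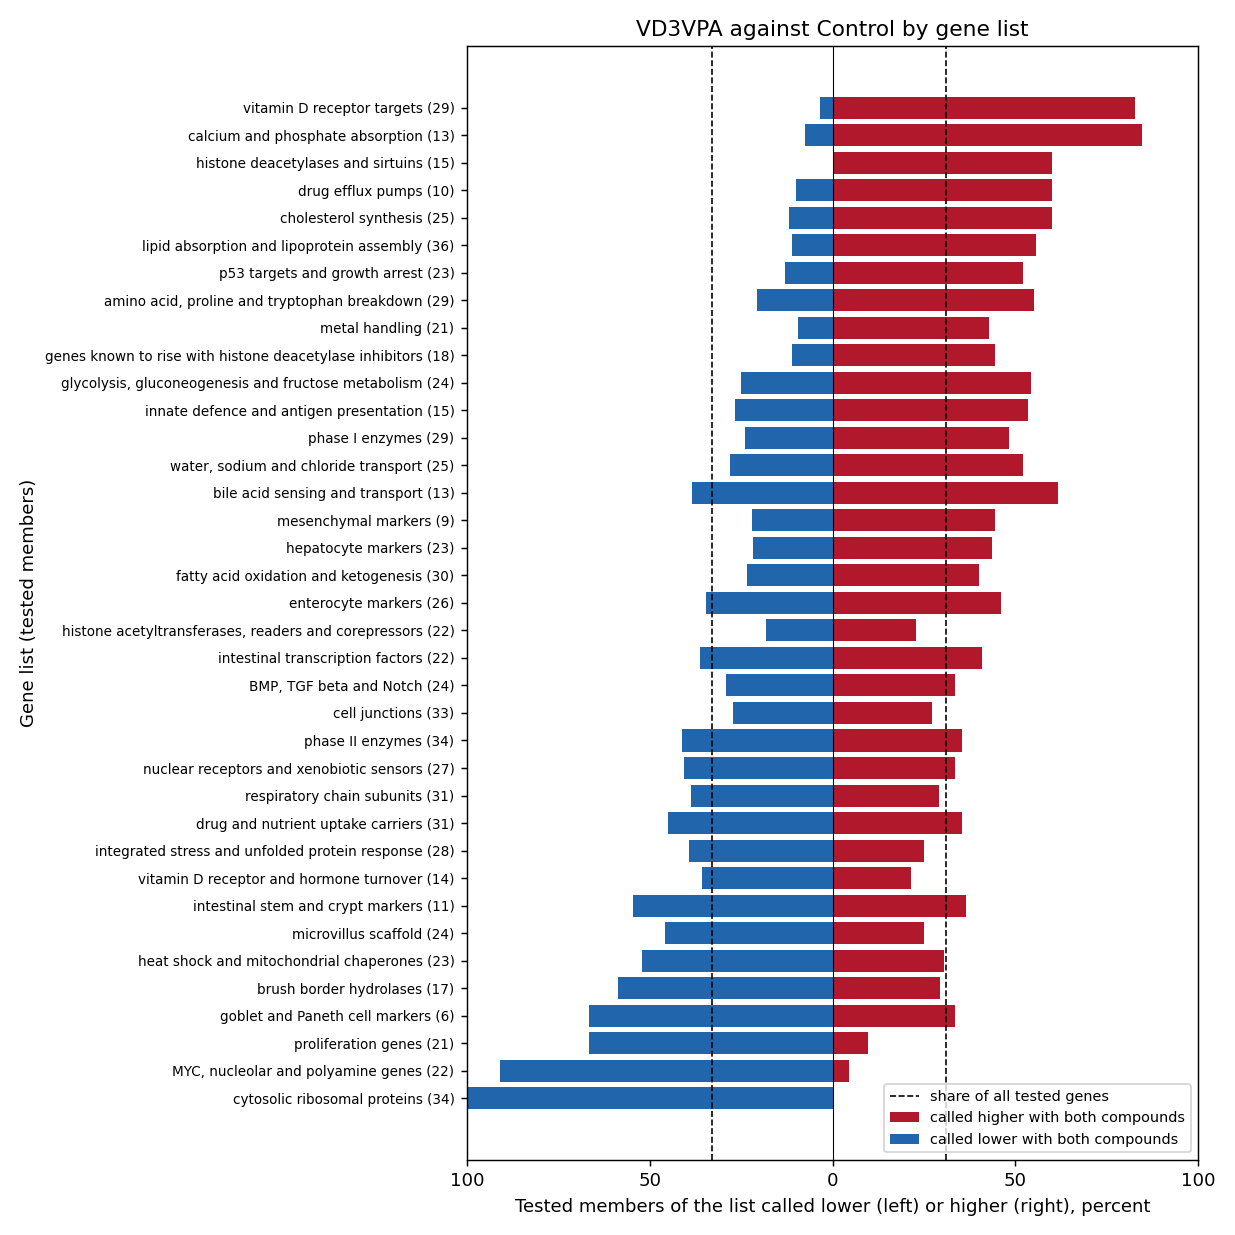
Share of the tested members of each gene list called higher (right) or lower (left) in VD3VPA against Control, for lists with at least 5 tested members, with dashed lines at the shares of all genes, 31.1% higher and 33.1% lower. The ribosomal list stood at 34 of 34 lower and the VDR target list at 24 of 29 higher.

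The joint treatment was set beside each compound alone. Against VD3 alone, 4359 genes (34.7%) differed, 2200 higher (17.5%) and 2159 lower (17.2%), and against VPA alone 7948 genes (63.3%) differed, 3590 higher (28.6%) and 4358 lower (34.7%). The joint change differed from the sum of the single changes, on the log2 scale, in 5566 genes (44.3%). Near 0 FPKM the pseudocount and the floor of this scale can alter such a difference. With both compounds 1021 genes were higher than in each of the other 3 groups (8.13%) and 881 were lower (7.01%). CYP3A4 stood at 23.6 ± 1.72 FPKM (SD, n = 3) with VD3 alone and 61.5 ± 3.27 with both (log2 change 1.35, SE 0.0603, adjusted p = 3.34e-07), and PRODH2 at 20.8 ± 3.72 and 50.5 ± 5.02 (log2 change 1.25, SE 0.131, adjusted p = 5.19e-05). S100G did not pass that test, with 1535 ± 172 FPKM with VD3 alone and 2069 ± 210.2 with both (log2 change 0.43, SE 0.603, adjusted p = 0.622). In VPA alone S100G was at 14.1, 1.00 and 0.809 FPKM, of which 1 library stood above the others. The SE is shared by all groups, so it also holds the spread of these VPA libraries. Every library with both compounds lay above every library with VD3 alone for S100G. MYC fell further than with either compound, at 1.80 FPKM with VD3, 5.69 with VPA and 0.769 with both.

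Some genes moved in opposite directions with the single compounds. VD3 alone changed 62.5% of all genes and VPA alone 52.7%. Genes called in opposite directions numbered 1382 (11.0%), and the 8 protein-coding genes with the largest opposed changes are described. The comparisons share the Control libraries, so the values are given side by side. ENC1, an actin-binding adaptor, was at 58.7, 58.5 and 48.4 FPKM in Control, 20.4, 20.6 and 17.1 with VD3, 133, 128 and 143 with VPA and 11.1, 12.9 and 13.1 with both. The joint libraries lay below all others, and the interaction was -1.88 (adjusted p = 3.09e-06). SUSD2, a membrane protein, averaged 49.2 FPKM in Control, 14.5 with VD3, 145 with VPA and 15.9 with both. SLC2A5, the fructose carrier, averaged 10.2, 2.83, 28.2 and 3.75 FPKM in the same order. With both compounds SUSD2, SLC2A5, SSX2IP, a centrosomal protein, and AADAC, an esterase, all lay below Control. FGG, a fibrinogen chain, averaged 201 FPKM in Control, 1283 with VD3, 56.9 with VPA and 1149 with both. ANXA13, an annexin of the enterocyte membrane, averaged 8.33, 109, 1.46 and 66.8 FPKM in that order. With both compounds FGG, ANXA13 and UGT2B11, a glucuronosyltransferase, lay above Control.

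**Figure D4:**
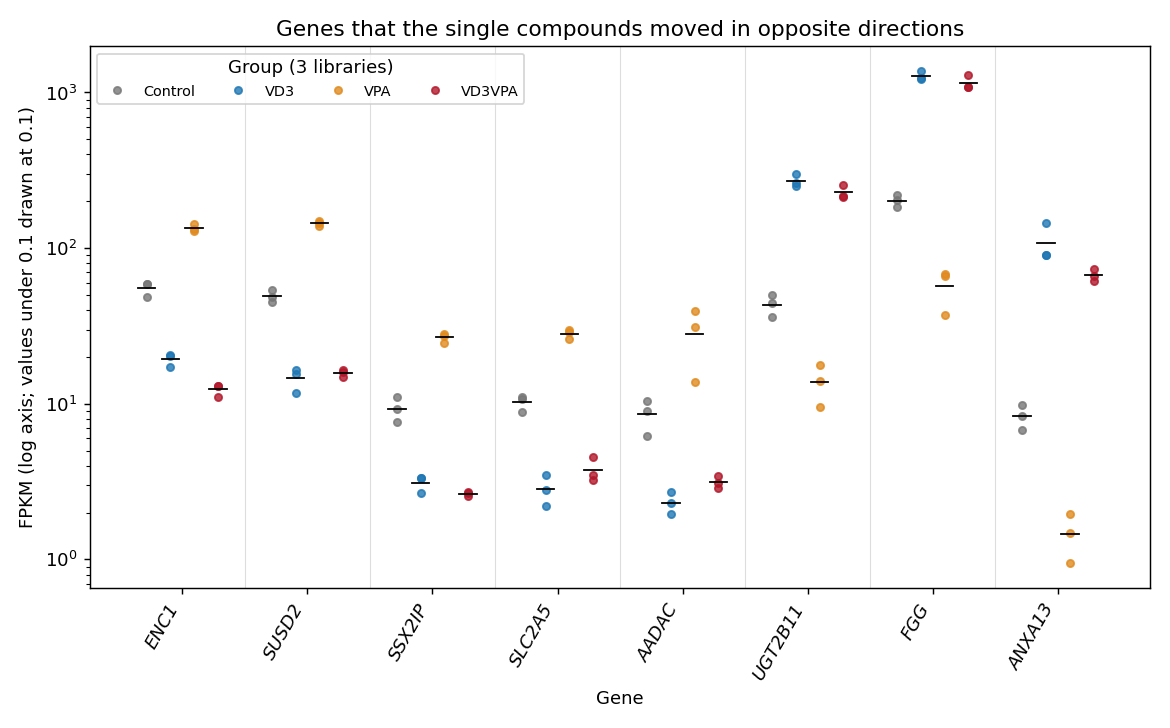
FPKM in each library (points) with the group mean (bar) for the 8 genes that VD3 and VPA alone moved most in opposite directions, on a log axis. ENC1 averaged 12.4 FPKM with both compounds against 55.2 in Control.

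Markers of other cell types were measured in the same libraries. Of the hepatocyte markers, 10 of 23 tested members rose, 5 fell and 8 did not pass the test, with a median log2 change of 0.03, a median that was -0.01 with libraries scaled to their own fragment totals. The fibrinogen chain FGB rose from 633 to 2765 FPKM (log2 change 2.13, SE 0.152, adjusted p = 2.61e-07), and ALB did not pass the test (log2 change -0.34, SE 0.219, adjusted p = 0.199), although it did without VPA replicate 3 (adjusted p = 0.0439), with quantile normalization (adjusted p = 0.0146) and with the 6 libraries alone (adjusted p = 0.0066). Goblet and Paneth cell markers summed to 346 to 437 FPKM in Control and 185 to 193 with both, and 2 of 6 tested members rose, 4 fell and 0 did not pass the test, with a median log2 change of -1.40. Gastric markers summed to 141 to 164 FPKM and 34.4 to 40.3, and all 3 tested members fell. Mesenchymal markers summed to 312 to 354 FPKM and 412 to 439.9, and 4 of 9 tested members rose, 2 fell and 3 did not pass the test, with a median log2 change of 0.35 (0.13 with voom on the recovered fragments). Of these, SPARC, a matrix protein, rose from 48.1 to 160.5 (log2 change 1.72, SE 0.129, adjusted p = 3.93e-07). Intestinal stem and crypt markers summed to 26.8 to 27.1 and 36.6 to 37.2 FPKM, with 4 of 11 tested members higher and 6 lower. Enteroendocrine markers summed to 6.31 to 10.0 FPKM in Control and 5.56 to 7.13 with both, tuft and microfold markers to 6.30 to 6.89 and 5.33 to 5.97, pluripotent cell markers to 7.83 to 8.45 and 6.56 to 6.98, and neural markers to 3.97 to 5.15 and 4.55 to 5.94. Endothelial, blood and muscle markers summed to 13.4 to 16.4 and 17.9 to 20.4 FPKM, and the globin genes HBA1 and HBG1 and the muscle regulator MYOD1 were at 0 in all 12 libraries. So were CRP of the hepatocyte list, REG3A of the goblet and Paneth list, GKN1 and GKN2 of the gastric list, UTF1 of the pluripotent list and ELAVL4 of the neural list. The part of these cell types in the changes above was not tested.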

How the data were processed

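RNA was measured in 12 poly-A selected libraries of 4 groups with 3 libraries each. The deposited table holds FPKM per gene and library, per the file headers, made by the authors. Per the submitters' processing notes the build was GRCh38.p13, and DESeq2 1.20.0, HISAT2 2.0.5 and featureCounts 1.5.0-p3 were involved in roles that are not stated. The strand setting is not given in the sources used here. All 58735 genes match GENCODE release 29, and 0 value columns were left unmapped. Whole fragments were recovered from FPKM and gene length (100% of values, tolerance 0.01), and these were used for depth, counting intervals and an added check. These intervals cover counting error only.

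The 12561 genes reaching 1 FPKM in 3 or more libraries were fitted on log2(FPKM + 1) in limma 3.58.1 (R 4.3.3), with a mean per group, all 12 libraries and a trended prior, leaving 8 residual degrees of freedom. Y-linked genes and XIST were left out. P-values were adjusted over all genes with the Benjamini-Hochberg method. The median SE of a log2 change was 0.0658. The procedure was tested on simulated data with a fixed dispersion of 0.005, in which far fewer genes were changed than were called here. It recovered 20% of 1.25-fold changes, 86% of 1.5-fold changes and 100% of 2-fold changes, and called 0.0647% of unchanged genes. The dispersion was a setting, so these shares do not give the error rate in the real libraries. Counts used Python 3.11.15 with SciPy 1.17.1, pandas 2.3.3 and numpy 2.4.6, and figures used matplotlib 3.10.9.

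The 43 gene lists (1039 genes) and the rule for named genes were chosen with earlier results of these data known. The rule took 15 rises and 15 falls, the largest in called protein-coding genes without overlap between groups, 8 in each direction beyond all other groups, 8 moved in opposite directions by the single compounds, up to 3 per list by p, and 27 genes of known interest. Some of these genes are not reported here. No set test was run, and lists are described by counts beside those of all genes. Promoter sequences are from RefSeq on GRCh38.p14. Alternatives covered the pseudocount, the filter, the scaling, the prior, the libraries fitted, a replicate block and leaving out each library.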

Additional observations from a re-analysis of the deposited data

Results flagged for a closer look

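The effect of VPA in cells that also received VD3 differed from its effect in cells that did not for 26 of the 38 genes with the largest or opposed changes, each by the test of the interaction in limma, which called 44.3% of all genes. Of the 38, 8 were chosen for opposed single changes, and all 8 are among the 26. The values are differences between the 2 effects of VPA on the log2 scale, and 0 would mean that the changes of the single compounds add up. A level cannot fall below 0 FPKM, which limits this sum for genes that both compounds lowered. NPW changed by -2.58 with VD3 and -2.55 with VPA, from 12.8 FPKM in Control. Its additive level would lie below 0 FPKM, so a value above 0 was fixed in advance. AKR1B10, AGR3 and UGT2B15 come near this limit. The interaction was above 0 in 15 genes: CYP3A4 1.20, PRODH2 1.15, PRG4 3.34, CLDN2 0.69, SLPI 1.48, TDO2 0.78, NPW 2.43, AGR3 0.78, UGT2B15 0.81, AKR1B10 2.17, AGR2 2.12, TFF1 1.35, ANXA13 1.27, FGG 1.69 and UGT2B11 1.38. It was below 0 in 11 genes: INMT -0.57, BTNL3 -1.30, DKK4 -0.44, ERVMER34-1 -0.44, KCNE3 -0.65, STC1 -1.23, ENC1 -1.88, SUSD2 -1.41, AADAC -1.19, SLC2A5 -1.07 and SSX2IP -1.60. Among the former, VPA lowered AKR1B10 from 31.6 to 4.96 FPKM on its own, and the level was 5.77 with VD3 alone and 4.59 with both. Among the latter, VPA raised BTNL3 from 104 to 169 FPKM on its own, and it stood at 28.9 with VD3 alone and 18.7 with both. For CYP3A4 the sign of the interaction depends on the pseudocount of 1 FPKM. VPA took CYP3A4 from 0.0274 to 0.142 FPKM without VD3 (10 and 45 fragments), and from 23.6 to 61.5 with VD3. As a ratio, the first of these rises is the larger.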

How the results depend on the processing

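Leaving out each library in turn gave 7409 to 8063 genes called between VD3VPA and Control, 3592 to 3901 higher, 3810 to 4162 lower and 921 to 1023 with at least a 2-fold change. It gave 3401 to 4703 against VD3 alone, 7237 to 8143 against VPA alone, 4887 to 5436 for the interaction, 801 to 1057 higher and 664 to 947 lower than in each other group, and 1081 to 1318 with opposed single changes. A filter of 5 FPKM, which tests 6717 genes, gave 4883 called, 2288 higher and 2595 lower, with 2877 against VD3 alone, 4825 against VPA alone, 3647 for the interaction, 579 higher than in each other group and 917 with opposed single changes. The count with at least a 2-fold change, 956, became 1650 with a pseudocount of 0.1 and 1727 with voom on the recovered fragments. Both of these lower the part that the pseudocount takes from genes with low levels. Voom and scaling to each library's own fragment total were chosen after seeing the data.

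The share of higher calls was 48.4%, and 43.8% with equal FPKM sums, 43.8% with own fragment totals and 44.8% with quantile normalization. The correlation of same-numbered libraries ran from -0.08 to 0.15 over 18 pairs, and 5 of 12 correlated best with their own number. With 3 libraries a group, these values cannot show whether such libraries share more than a number. The replicate block called 8022 genes. Among named genes, AFP lost its call under quantile normalization (log2 change 0.00), where it ranks first in every library and is set equal by construction. Its adjusted p was 0.786 with no filter, at the same log2 change, 0.0734 without VD3VPA replicate 2 and 0.0543 without VD3VPA replicate 3. PECAM1, ALB, MYL3 and CDX2 also crossed the threshold under other settings, and the cause was not tested. Depth limits the ratios of CYP24A1 and CYP3A4, which rest on 1 and 10 Control fragments.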
